A study of Mus musculus with 6 samples.

Results

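The collagen genes of the mouse retina were taken as every gene of the count table whose symbol reads Col, a type number, the letter a and a chain number, with at least 10 counts summed over the 6 libraries. All 44 such symbols among the 24062 of the table passed that minimum, so the 44 collagen genes are described here against the 16904 genes that were tested. They comprised 11 genes for fibrillar collagens, 8 for basement membrane collagens and 25 for other types. Libraries were made from poly(A) RNA of whole retinae of C57BL/6 mice at postnatal day 21 (P21), 3 from Chx10-Cre Rb1/p107/Hells triple knockout mice (TKO) and 3 from Chx10-Cre Rb1/p107 double knockout mice (DKO). Both groups carry the Chx10-Cre transgene, floxed Rb1 alleles and a germline deletion of p107, a combination that gives retinoblastoma in this model, and the TKO mice in addition carry floxed alleles of Hells, which encodes a chromatin remodeler of the SNF2 family. Chx10-Cre acts in a mosaic of retinal progenitors, so each retina also holds cells in which neither Rb1 nor Hells was recombined, and cells from outside the retinal lineage, such as vessels and microglia, are not targeted. Loss of p107 is in all cells of both groups. The labels give each library its own number within a group but do not say how the animals were related, so p-values measure the spread between these libraries only.

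Collagens are proteins of 3 alpha chains wound into a triple helix. Fibrillar collagens assemble into the staggered fibrils of bone, skin, sclera, cartilage and vitreous, while type IV collagen forms the sheet-like network of basement membranes, which in the eye include the inner limiting membrane, the vessel walls, Bruch's membrane and the lens capsule. FACIT collagens (fibril-associated collagens with interrupted triple helices) sit on the surface of fibrils, type VI collagen forms beaded filaments around cells, and transmembrane collagens span the cell membrane and can be shed from it. The neural retina itself contains little interstitial collagen. Astrocytes, Muller glia, vascular cells and the ciliary epithelium are known sources of the collagens of the inner retina and vitreous.

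Most collagen genes lay lower in TKO than in DKO retinae, but only a few differences exceeded the spread between replicates. By edgeR's quasi-likelihood test with Benjamini-Hochberg adjustment over all genes, at an adjusted p of at most 0.05, 7 of the 44 collagen genes (15.9%) fell in TKO retinae, where 9.20% of all genes tested did, and 1 (2.27%) rose, where 7.35% of all genes did. The 7 that fell were Col25a1, Col12a1, Col6a3, Col2a1, Col4a5, Col16a1 and Col9a3, and the 1 that rose was Col19a1. The other 36 were not called. The fitted log2 fold change (TKO over DKO) was below 0 for 35 of the 44 genes (79.5%), as it was for 51.2% of all genes, and its median was -0.57 over the collagen genes and -0.01 over all genes. Normalized counts, which are counts scaled to a common library size, were lower in every TKO than in every DKO retina for 10 collagen genes (22.7%), against 20.6% of all genes, and higher for 1, against 18.0% of all genes. With the 2 further criteria of the study, a log2 fold change of 1 or more in either direction and 10 or more normalized counts on average, 1 collagen gene (Col19a1) was differentially higher and 4 (Col25a1, Col6a3, Col2a1 and Col9a3) were differentially lower. All genes met these criteria in 1.97% of cases upward and 4.38% downward.

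**Figure D1:**
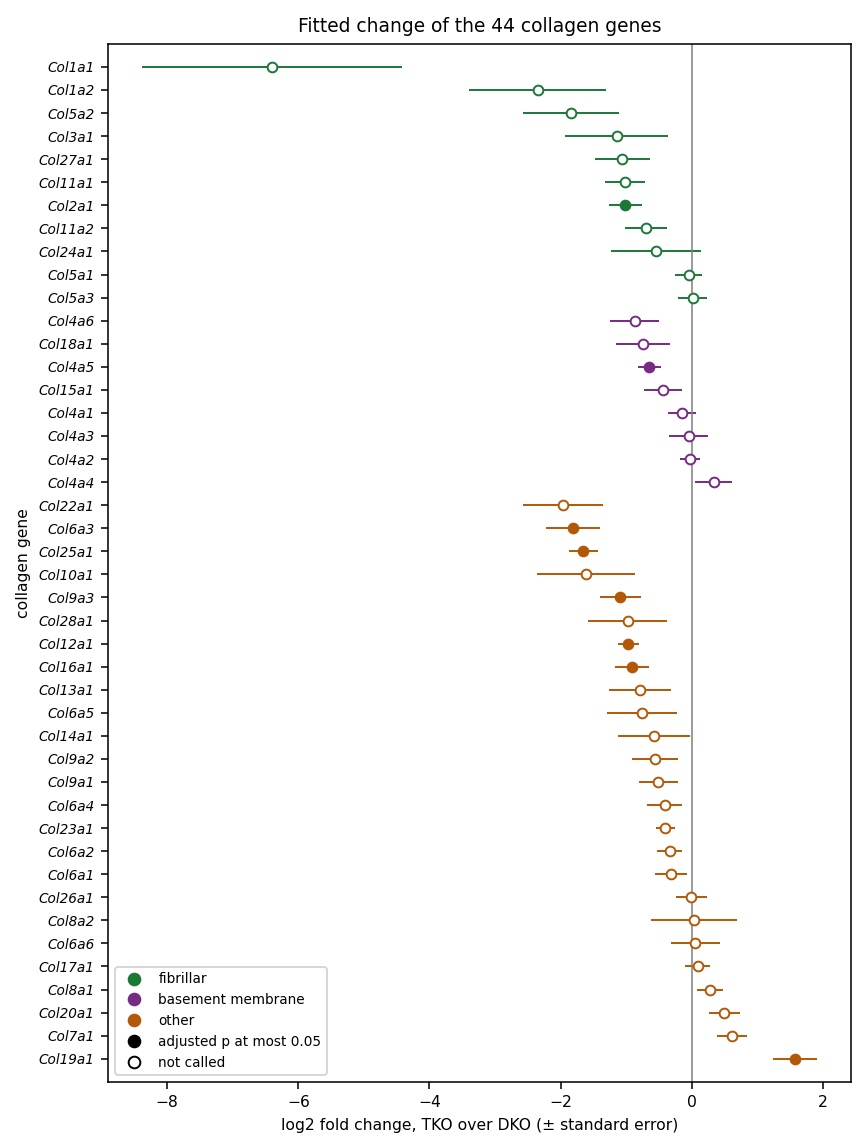
Fitted log2 fold change (TKO over DKO, horizontal axis) of each of the 44 collagen genes (vertical axis), ordered within the 3 classes, with the standard error of the fit as the line. Filled points mark the 7 genes that fell and the 1 that rose at an adjusted p of at most 0.05, and the longest lines belong to genes with 1 library far above the others, Col1a1 first.

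By class, the 11 fibrillar genes had a median log2 fold change of -1.01 with 1 gene called lower (Col2a1), and 10 of the 11 lay below 0. The 8 basement membrane genes had a median of -0.29 with 1 called lower (Col4a5). Among the 25 other genes the median was -0.51, with 5 called lower and 1 higher, and 9 of the 25 were FACIT genes, of which 3 fell (Col12a1, Col16a1 and Col9a3) and 1 rose (Col19a1). The fibrillar median rested largely on 1 library. Without DKO replicate 1 it was -0.42, and the basement membrane and other medians were -0.18 and -0.30. Without that library 2 collagen genes were called lower (Col25a1 and Col12a1) and 1 higher (Col19a1), while 35 of 44 lay below 0 with a median of -0.30. Of all 16666 genes tested in that fit, 499 were called lower and 312 higher. The count of lower collagen genes also turned on other libraries, being 4, 2 and 14 when TKO replicates 1, 2 and 3 were left out in turn, and 2 and 9 when DKO replicates 2 and 3 were. The count of lower genes over the whole table moved as well, being 766, 404 and 1973 without TKO replicates 1, 2 and 3, and 433 and 1715 without DKO replicates 2 and 3. Between 31 and 38 of the 44 genes lay below 0 in these fits. Scaling by total counts alone, which called 778 genes higher and 2610 lower over the whole table, put the median of all genes at -0.17 and that of the collagen genes at -0.72, with 39 of 44 below 0.

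DKO replicate 1 held the highest normalized count for 26 of the 44 collagen genes, including 9 of the 11 fibrillar genes and all 6 type VI genes. DKO replicates 2 and 3 held the highest count for 5 and 7 genes, and TKO replicates 1, 2 and 3 for 3, 2 and 1. TKO replicates 1 and 2 held the lowest count for 13 and 15 genes, whereas TKO replicate 3 did for 2. Collagen genes took 0.126%, 0.134% and 0.212% of the counts of TKO replicates 1, 2 and 3, and 0.419%, 0.249% and 0.220% of those of DKO replicates 1, 2 and 3. The groups did not overlap in this share, although TKO replicate 3 and DKO replicate 3 lay close together. Leaving out Col1a1 and Col1a2 lowered the share in DKO replicate 1 to 0.280%, with 0.241% and 0.212% in DKO replicates 2 and 3 and 0.124% to 0.199% in TKO retinae.

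**Figure D2:**
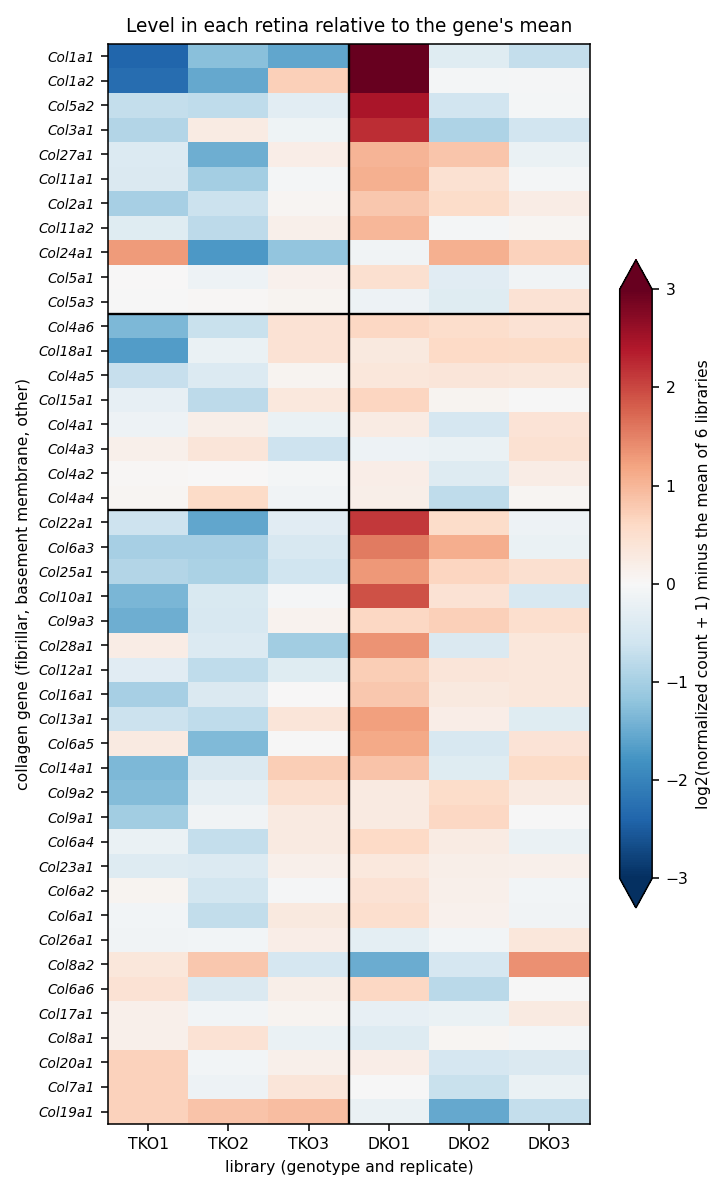
Level of each of the 44 collagen genes (rows, in 3 blocks from the top: fibrillar, basement membrane, other) in each of the 6 libraries (columns) as log2(normalized count + 1) minus the gene's mean over the 6 libraries, with the colour scale ending at -3 and 3. DKO replicate 1 is the darkest column in the fibrillar block and holds the highest value of 26 genes, and TKO replicates 1 and 2 are lowest for 13 and 15 genes.

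The libraries held between 10343907 and 14203098 counts. Hells, the gene that separates the groups, was counted over all of its exons and had 60.8, 68.4 and 83.4 normalized counts across TKO and 678, 523 and 395 in DKO replicates 1, 2 and 3, so each library followed its label (log2 fold change -2.91, standard error 0.225, edgeR adjusted p = 0.00359). Rod markers were abundant in all libraries, as the retina label requires, and all 8 of them were higher in TKO retinae, with a summed level of 26657 to 54128 CPM (counts scaled to a library of 1000000) against 9085 to 17328 in DKO retinae. Of 9 Muller glia markers 5 were higher, of 7 bipolar markers 1 was higher, and none of 6 amacrine, 5 horizontal, 7 ganglion cell or 4 astrocyte markers was called at an adjusted p of at most 0.05. At an unadjusted p under 0.05, 2 amacrine and 2 horizontal markers were lower, 1 ganglion cell marker was higher, and 1 astrocyte marker was higher and 2 lower. DESeq2 called 2, 1, 0 and 1 markers of these lists. The share of all genes at an unadjusted p under 0.05 was not taken. All 7 markers of dividing cells and 4 of 7 microglia markers were lower. Among cells that make collagen, 1 of 12 endothelial markers was higher by edgeR, 2 by DESeq2 and 3 at an unadjusted p under 0.05, and 11 lay above 0 with a list median of 0.48 (log2). The summed endothelial level, most of it Kdr (log2 fold change -0.21), was 471 to 575 CPM in TKO and 461 to 589 in DKO retinae, and without Kdr it was 155 to 164 and 96.4 to 139. The 10 markers of pericytes and smooth muscle summed to 75.8 to 99.0 in TKO and 58.8 to 82.5 in DKO retinae, and 7 lay above 0 with a list median of 0.29. None was called by edgeR, 1 was lower at an unadjusted p under 0.05 and 1 was called lower by DESeq2. Fibroblast markers (1 of 10 lower, Prrx1) summed to 72.8 to 124 in TKO and 115 to 171 CPM in DKO retinae. Their median log2 fold change was -1.17, and 1 of the 10 lay above 0. Without Pdgfra, the largest, the sum was 36.8 to 73.3 CPM in TKO and 70.6 to 99.5 in DKO retinae, with overlap. Markers of tissue next to the retina differed in level between libraries. Lens markers (6 of 14 higher, all crystallin genes) summed to 54.4 to 332 CPM in TKO retinae, highest in replicate 2, and to 13.4 to 15.6 in DKO retinae, and pigment cell markers (1 of 12 higher) to 111 to 262 and 33.3 to 130. Cornea markers stayed at or under 7.81 CPM, with Kera at 0 in every library (of 3 tested, none was called by edgeR, 1 was lower at an unadjusted p under 0.05 and 1 by DESeq2). In whole retinae fewer cells of a type and less RNA per cell cannot be told apart, and the part of these marker differences in the collagen results was not tested beyond the values given below.

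Col25a1 had the smallest adjusted p of the collagen genes. It encodes a transmembrane collagen of neurons that is shed from the cell surface, binds amyloid plaques and is needed for motor innervation of muscle. Its gene lies on chr3:130131501-130599877 (plus strand, GRCm38), and the RefSeq transcription start used here lies within that annotated gene. The bases before this start are shown because Col25a1 fell most firmly, on chr3:130180595-130180844 in the 5′ to 3′ direction of the gene, with a CCAAT box, the motif bound by NF-Y, in capitals.
Col25a1: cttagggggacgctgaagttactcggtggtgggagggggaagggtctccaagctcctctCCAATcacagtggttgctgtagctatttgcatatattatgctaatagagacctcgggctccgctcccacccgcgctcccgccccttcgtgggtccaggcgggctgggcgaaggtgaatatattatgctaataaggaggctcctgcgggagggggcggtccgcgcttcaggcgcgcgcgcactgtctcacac
The CCAAT box begins at position -191 from the start. Col25a1 had 351, 335 and 422 normalized counts across TKO replicates 1, 2 and 3 and 1592, 997 and 894 in DKO replicates 1, 2 and 3. The groups did not overlap, and the gap between them was wider than the range within TKO retinae but narrower than the range within DKO retinae. The means were 369 ± 46.5 and 1161 ± 377 (mean ± SD, n = 3 each), 3.15-fold lower in TKO retinae by the fit (log2 fold change -1.65, standard error 0.216, edgeR adjusted p = 0.00677). Leaving out any 1 library kept the call, with log2 fold changes from -1.81 to -1.36 and edgeR adjusted p-values from 0.00269 to 0.0388.

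Col12a1 fell as well. It encodes the FACIT collagen XII, which decorates type I collagen fibrils in tissues under tension, and lies on chr9:79598991-79718831 (minus strand). It had 305, 227 and 298 normalized counts across TKO and 644, 497 and 484 in DKO replicates 1, 2 and 3, with no overlap. The means of 277 ± 43.0 and 542 ± 88.8 (mean ± SD, n = 3 each) gave a log2 fold change of -0.97 (standard error 0.158, edgeR adjusted p = 0.00868), which is 1.96-fold lower. Col12a1 and Col25a1 were the only collagen genes called in each of the 6 fits with 1 library left out, and the adjusted p of Col12a1 in these edgeR fits ran from 0.00649 to 0.0429. Both genes are among those that were highest in DKO replicate 1, which had 1.68 times the mean of the other DKO retinae for Col25a1 and 1.31 times for Col12a1. Without that library the log2 fold changes were -1.36 and -0.83.

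Col19a1 was the 1 collagen gene that rose. It encodes the FACIT collagen XIX, made by subsets of neurons and known for a part in synapse formation, and lies on chr1:24261890-24587472 (minus strand). The bases before its start, chr1:24587473-24587687 on the minus strand, are shown from RefSeq up to the first annotated exon as those of the 1 gene that moved upward, and held neither a CCAAT box, nor a TATA box (TATAAA), nor an E2F site (TTTCCCGC, TTTGGCGC or TTTCGCGC), on either strand.
Col19a1: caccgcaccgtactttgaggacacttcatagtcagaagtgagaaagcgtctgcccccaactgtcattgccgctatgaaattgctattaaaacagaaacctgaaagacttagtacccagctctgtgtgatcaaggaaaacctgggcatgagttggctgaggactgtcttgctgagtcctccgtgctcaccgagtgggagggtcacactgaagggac
Its level was low, with 56.2, 63.1 and 66.3 normalized counts across TKO and 30.1, 11.4 and 20.7 in DKO replicates 1, 2 and 3. Every TKO retina lay above every DKO retina. The means of 61.9 ± 5.16 and 20.7 ± 9.37 (mean ± SD, n = 3 each) correspond to a 2.98-fold increase (log2 fold change 1.58, standard error 0.339, edgeR adjusted p = 0.0186). With 1 library left out the log2 fold change stayed between 1.28 and 1.94, and the call held in 4 of 6 fits, failing without TKO replicate 2 (edgeR adjusted p = 0.0683) and without DKO replicate 2 (edgeR adjusted p = 0.0568). Col19a1 lies tail to tail with Col9a1, 9205 bp away, and Col9a1 did not share its direction (log2 fold change -0.51, edgeR adjusted p = 0.265).

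The same 3 motifs were searched on both strands of the RefSeq promoters (the 250 bases before a start) of the 35 collagen genes that have an entry, 38 windows in all. A CCAAT box was found in 13 of the 38 windows, where 33.8% of 32851 promoters hold one, a TATAAA in 5, where 12.4% do, and an E2F site in 1, that of Col17a1, where 1.53% do. Col12a1, Col14a1, Col1a1, Col22a1, Col26a1, Col2a1, Col4a3, Col5a2 and Col9a3 had no entry.

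**Figure D3:**
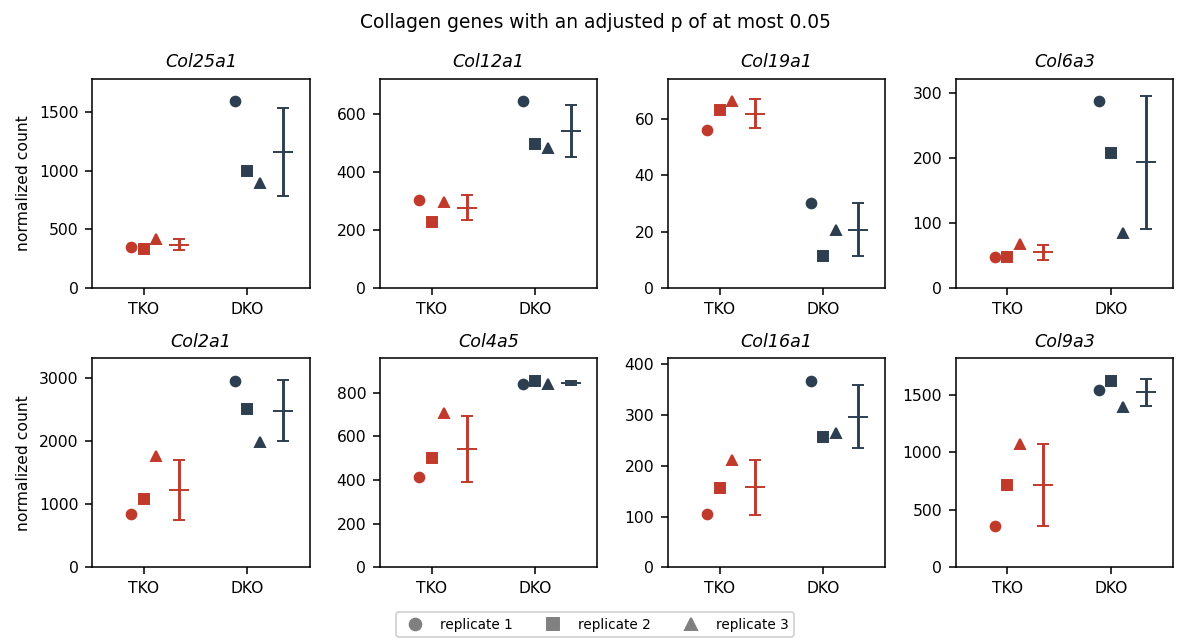
Normalized counts (vertical axes, starting at 0) of the 8 collagen genes with an adjusted p of at most 0.05 in 3 TKO and 3 DKO retinae, with the mean and SD beside the points and the symbol giving the replicate. The groups do not overlap in any panel, Col19a1 alone is higher in TKO, and TKO replicate 3 lies nearest to the DKO points for all of the lower genes except Col12a1.

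Among the 6 type VI collagen genes, Col6a1 had the highest level. Col6a1, an obligate chain of the type VI heterotrimer, was at 41.3 ± 13.9 CPM per kilobase of exon in TKO and 51.4 ± 10.7 in DKO retinae (mean ± SD, n = 3 each), the second highest level of the collagen genes. It was not called (log2 fold change -0.32, edgeR adjusted p = 0.403), nor was its partner chain Col6a2 (-0.33, edgeR adjusted p = 0.257). Col6a3, the long chain that completes the trimer, had 48.2, 48.4 and 68.7 normalized counts across TKO and 288, 208 and 84.6 in DKO replicates 1, 2 and 3. The groups did not overlap, but DKO replicate 3 stood much nearer to the TKO retinae than to the other DKO retinae. The fit gave a 3.51-fold decrease (log2 fold change -1.81, standard error 0.415, edgeR adjusted p = 0.0228), and of the 6 fits with 1 library left out the call was kept in 2, those without TKO replicate 3 and without DKO replicate 3. Without DKO replicate 1 the log2 fold change was -1.41 (edgeR adjusted p = 0.0764). The chains Col6a4, Col6a5 and Col6a6, which can take the place of Col6a3 and lie next to each other on chromosome 9, had log2 fold changes of -0.42, -0.75 and 0.05, and none was called by edgeR or by DESeq2.

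The collagens of cartilage and vitreous included the gene with the highest level. Types II, IX and XI build the thin fibrils of the vitreous, where type IX collagen coats fibrils of types II and XI, and the ciliary epithelium is a known source. Col9a1 had the highest level of all 44 genes, 41.8 ± 17.4 CPM per kilobase of exon in TKO and 59.5 ± 12.9 in DKO retinae (mean ± SD, n = 3 each). Its normalized counts were 1495, 2836 and 3704 in TKO and 3674, 4700 and 3062 in DKO replicates 1, 2 and 3, so the groups overlapped and TKO replicate 1 was the lowest. Col9a2 had the same order among TKO retinae, with 189, 384 and 653 normalized counts against 559, 685 and 566 in DKO retinae, and it was not called (log2 fold change -0.56, edgeR adjusted p = 0.303). Col9a3, the remaining type IX chain (chr2:180597790-180622189, plus strand), had 359, 713 and 1073 normalized counts across TKO and 1540, 1624 and 1398 in DKO replicates 1, 2 and 3. Here every TKO retina lay below every DKO retina. The log2 fold change was -1.09 (standard error 0.314, edgeR adjusted p = 0.0486), just inside the threshold, while DESeq2 gave an adjusted p of 0.0626. Exons of Col9a3 overlap those of Tcfl5 on the opposite strand by 234 bp. Tcfl5 itself had 4.21 ± 1.92 normalized counts across TKO and 24.9 ± 11.1 in DKO retinae (mean ± SD, n = 3 each), few beside the 715 ± 357 and 1521 ± 114 of Col9a3, and the strand setting of the counting is not given in the sources used here.

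Col2a1, the single chain of type II collagen (chr15:97975602-98004695, minus strand), had 850, 1080 and 1766 normalized counts across TKO and 2959, 2504 and 1990 in DKO replicates 1, 2 and 3. The groups did not overlap, with TKO replicate 3 and DKO replicate 3 nearest to each other. Its means of 1232 ± 477 and 2484 ± 485 (mean ± SD, n = 3 each) differed 2.02-fold (log2 fold change -1.01, standard error 0.256, edgeR adjusted p = 0.0318). Of the type XI chains, Col11a1 had 359, 239 and 466 normalized counts across TKO and 1015, 666 and 465 in DKO retinae. This difference of -1.01 (log2) passed the threshold with DESeq2 (adjusted p = 0.00407) but not with edgeR (adjusted p = 0.0573). Col11a2 was at -0.69 (edgeR adjusted p = 0.167). Col16a1, a FACIT collagen that joins fibrils to neighbouring matrix (chr4:130047840-130099283, plus strand), fell from 297 ± 61.8 to 158 ± 54.0 normalized counts (mean ± SD, n = 3 each), with 104, 157 and 212 in TKO and 368, 257 and 265.1 in DKO replicates 1, 2 and 3. The groups did not overlap (log2 fold change -0.91, standard error 0.254, edgeR adjusted p = 0.0437). With 1 library left out, the calls of Col2a1 and Col16a1 were kept in 2 of 6 fits, those without TKO replicate 3 (log2 fold changes -1.36 and -1.18) and without DKO replicate 3 (-1.15 and -0.99). That of Col9a3 was kept in 2 fits as well, without TKO replicate 3 (-1.499) and without TKO replicate 1 (-0.77).

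TKO replicate 1 stood low in several of these genes and in a marker of the ciliary body. Its normalized count, relative to the mean of the other TKO retinae, was 0.457 for Col9a1, 0.365 for Col9a2, 0.402 for Col9a3, 0.281 for Col18a1, 0.391 for Col4a6 and 0.597 for Col2a1. The type XI chains did not share this, at 1.02 for Col11a1 and 0.916 for Col11a2, and both were lowest in TKO replicate 2. Optc, which encodes opticin, a vitreous protein made by the ciliary epithelium, had 90.6 normalized counts across TKO replicate 1, 1206 and 1368 in TKO replicates 2 and 3, and 775, 1114 and 1116 in DKO retinae. The 7 markers of ciliary body and iris summed to 37.4 CPM in TKO replicate 1, 149 and 173 in TKO replicates 2 and 3, and 149 to 194 in DKO retinae, and 1 of them (Cyp1b1) was called lower by edgeR. Without Optc, the largest, the list summed to 30.3 to 65.3 CPM in TKO and 80.1 to 106 in DKO retinae, without overlap. None of the 7 lay above 0, and their median log2 fold change was -0.81. At an unadjusted p under 0.05 (share of all genes not taken), 3 were lower, and DESeq2 called 2 lower. Without TKO replicate 1 the log2 fold changes were -0.77 for Col9a3 (edgeR adjusted p = 0.0377), -0.81 for Col2a1 (edgeR adjusted p = 0.0771), -0.35 for Col18a1 (edgeR adjusted p = 0.287), -0.55 for Col4a6 (edgeR adjusted p = 0.271) and -0.22 for both Col9a1 and Col9a2 (edgeR adjusted p = 0.516 and 0.557). The part of ciliary tissue in these differences was not tested further.

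**Figure D4:**
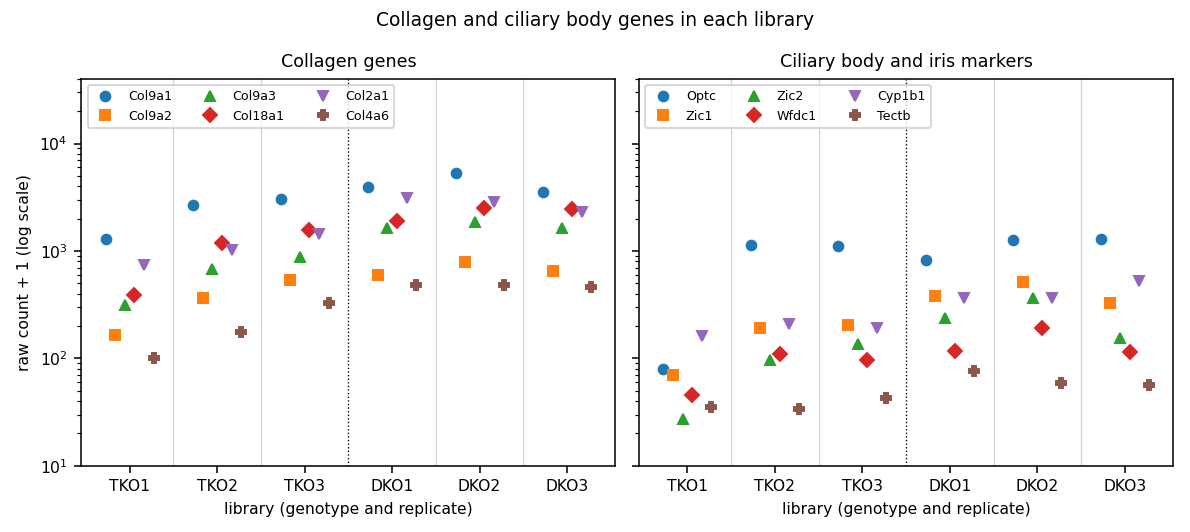
Raw counts plus 1 (vertical axes, log scale) of 6 collagen genes of the vitreous and ciliary epithelium and of 6 ciliary body and iris markers in the 6 libraries (horizontal axes), with a dotted line between TKO and DKO. Optc is at 79 counts in TKO replicate 1 and from 824 to 1292 in the other libraries, and Col9a1, Col9a2, Col9a3, Col18a1, Col2a1 and Col4a6 also have their lowest count in TKO replicate 1. The type XI genes Col11a1 and Col11a2 are not shown and have their lowest count in TKO replicate 2.

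The collagens of bone and connective tissue had their widest differences in 1 library. Col1a1, the main chain of type I collagen, had 18.3, 41.0 and 33.1 normalized counts across TKO replicates 1, 2 and 3 and 7788, 77.0 and 60.4 in DKO replicates 1, 2 and 3. Every DKO value was above every TKO value, and DKO replicate 1 was 113 times the mean of the other DKO retinae. The fitted log2 fold change of -6.40 had a standard error of 1.98 and was not called (edgeR adjusted p = 0.0603), and without DKO replicate 1 it was -1.15 (edgeR adjusted p = 0.0983). Col1a1 made up 15.6% of all collagen counts in DKO replicate 1 and 0.105% to 0.262% in the other 5 libraries. Col1a2, which pairs with Col1a1, had 194, 326 and 1554 normalized counts across TKO and 8711, 912 and 924 in DKO retinae, so TKO replicate 3 lay above DKO replicates 2 and 3. Its log2 fold change was -2.35 with all libraries (edgeR adjusted p = 0.156) and -0.42 without DKO replicate 1 (edgeR adjusted p = 0.759). Per kilobase of exon, Col1a1 reached 31.8 ± 53.7 CPM in DKO and 0.372 ± 0.139 in TKO retinae, and Col1a2 22.4 ± 28.6 and 4.40 ± 4.77, so the SD exceeded the DKO mean for both. Col2a1, at 21.2 ± 4.15 in DKO and 10.5 ± 4.08 in TKO retinae (mean ± SD, n = 3 each), was the fibrillar gene with a high level in all 6 libraries.

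DKO replicate 1 was also far above the other DKO retinae for other interstitial collagens. It had 659 normalized counts of Col5a2, a chain that regulates fibril diameter, where DKO replicates 2 and 3 had 79.7 and 116 and TKO retinae 70.5 to 95.7. For Col3a1, the fibrillar collagen of vessels and skin, it had 341 where DKO replicates 2 and 3 had 37.6 and 48.4 and TKO retinae 39.0 to 86.3. Col22a1, a FACIT collagen of tissue junctions, was at 173 there, at 57.8 and 35.4 in DKO replicates 2 and 3 and at 12.6 to 30.7 in TKO retinae, and Col10a1, of hypertrophic cartilage, was at 31.1, 10.5 and 5.18 against 2.29 to 7.36. None of these 4 genes was called by edgeR (adjusted p = 0.122, 0.346, 0.0625 and 0.169), and DESeq2 called Col22a1 (adjusted p = 0.00459). Without DKO replicate 1 their log2 fold changes were -0.30 for Col5a2, 0.57 for Col3a1, -1.04 for Col22a1 and -0.65 for Col10a1, against -1.84, -1.14, -1.96 and -1.62 with it.

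Genes of bone cells were found in the same library. Dmp1 and Ibsp, matrix proteins of osteocytes and osteoblasts, had 702 and 344 counts in DKO replicate 1 and 0 counts in each of the other 5 libraries, where a count of 0 allows up to 3. Bglap, which encodes osteocalcin, had 103 counts there and at most 3 elsewhere. Acp5 and Ctsk, enzymes of osteoclasts, had 260 and 292 counts there and at most 14 and 17 elsewhere, and Phex, an osteocyte protease, had 177 against at most 17. The 12 genes of this list, which was written after the values of Col1a1 had been seen, summed to 154 CPM in DKO replicate 1, 6.64 and 4.57 in DKO replicates 2 and 3 and 2.99 to 4.74 in TKO retinae. Of its 11 tested genes 1 (Atp6v0d2) was called lower in TKO retinae. Of the fibroblast markers, Lum had 122 counts in DKO replicate 1 and at most 10 elsewhere, and Twist1 21 and at most 1, while Mfap4 was at 344 there and at 511 and 351 in DKO replicates 2 and 3. The part of bone or other tissue in the collagen values of this library was not tested beyond leaving it out.

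**Figure D5:**
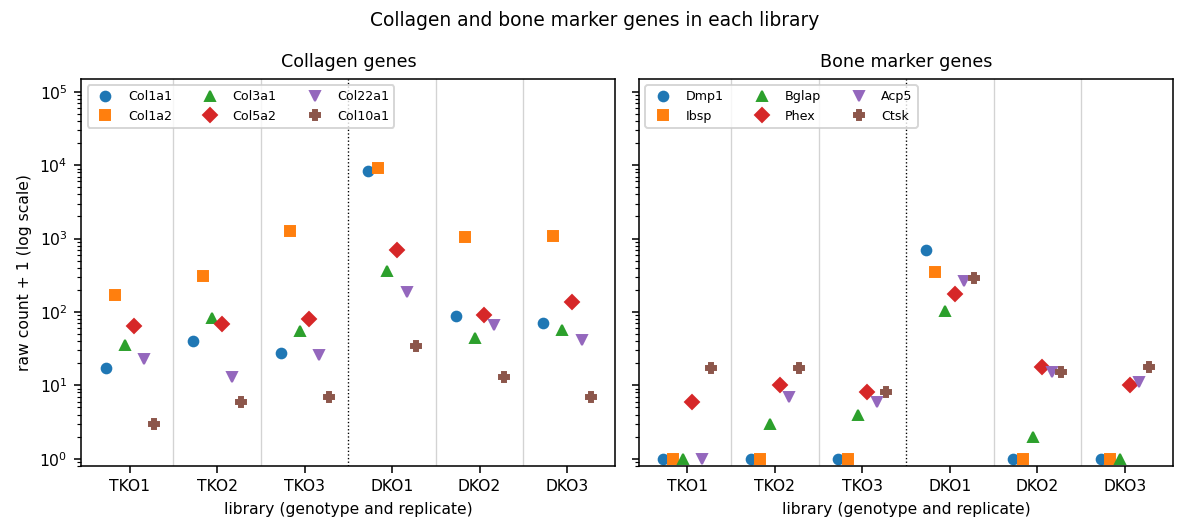
Raw counts plus 1 (vertical axes, log scale) of 6 collagen genes and 6 bone marker genes in the 6 libraries (horizontal axes), with a dotted line between TKO and DKO. All 12 genes are highest in DKO replicate 1, where Dmp1 has 702 and Ibsp 344 counts and every other library has 0.

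Other fibrillar genes differed less. Col5a1 and Col5a3, chains of type V collagen, had log2 fold changes of -0.05 and 0.02, within the spread between replicates. Col27a1, a cartilage collagen, had 478, 232 and 735 normalized counts across TKO and 1302, 1139 and 559 in DKO retinae, with TKO replicate 3 above DKO replicate 3 (log2 fold change -1.06, edgeR adjusted p = 0.117). Col24a1, a fibrillar collagen of developing bone and cornea, was highest in TKO replicate 1, at 521 normalized counts, with 64.2 and 94.5 in TKO replicates 2 and 3 and 200, 448 and 345 in DKO replicates 1, 2 and 3. Leaving out TKO replicate 1 turned its log2 fold change from -0.55 (edgeR adjusted p = 0.615) to -2.07 (edgeR adjusted p = 0.0215).

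Of the basement membrane collagens, Col4a5 alone was called, by edgeR and by DESeq2. Type IV collagen is built from 6 chains whose genes lie in 3 pairs, each read in opposite directions from a shared stretch between them. The pair Col4a1 and Col4a2, on chromosome 8 with starts that overlap by 22 bp, makes the trimer of nearly all basement membranes. Col4a1 had 1196, 1503 and 1160 normalized counts across TKO and 1573, 932 and 1776 in DKO replicates 1, 2 and 3, and Col4a2 had 1003, 996 and 936 and 1121, 746 and 1139. In both genes the TKO values lay within the range of the DKO values, and the log2 fold changes were -0.15 (standard error 0.219, edgeR adjusted p = 0.676) and -0.03 (standard error 0.153, edgeR adjusted p = 0.899). Their levels were 13.6 ± 2.00 and 11.7 ± 0.438 CPM per kilobase of exon in TKO and 15.1 ± 4.66 and 11.97 ± 2.65 in DKO retinae (mean ± SD, n = 3 each).

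Col4a5 fell while its neighbour Col4a6 was not called. The pair lies head to head on the X chromosome, with 1308 bp between the annotated starts, and the labels do not give the sex of the animals. Their windows are shown because both genes lay lower in TKO retinae, at -0.65 and -0.87, but only 1 passed the test. They are the bases before each start, from RefSeq and up to the first annotated exon, chrX:141475169-141475384 on the plus strand for Col4a5 and chrX:141474077-141474326 on the minus strand for Col4a6, each in the direction of its gene with a CCAAT box in capitals where present.
Col4a5: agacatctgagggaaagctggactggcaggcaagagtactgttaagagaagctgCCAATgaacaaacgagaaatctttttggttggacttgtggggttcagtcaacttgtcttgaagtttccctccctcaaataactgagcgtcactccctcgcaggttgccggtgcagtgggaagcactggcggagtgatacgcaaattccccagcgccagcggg
Col4a6: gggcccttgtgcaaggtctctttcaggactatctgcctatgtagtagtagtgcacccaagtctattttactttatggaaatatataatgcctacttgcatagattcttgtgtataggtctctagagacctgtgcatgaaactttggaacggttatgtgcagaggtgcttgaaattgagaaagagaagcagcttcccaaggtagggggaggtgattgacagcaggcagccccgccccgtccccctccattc
The Col4a5 window held a CCAAT box at position -196 from the RefSeq start and the Col4a6 window held none of the 3 motifs. Col4a5, a chain of the alpha-3, alpha-4, alpha-5 trimer of kidney glomerulus, cochlea and lens capsule (chrX:141475385-141689234), had 415, 500 and 709 normalized counts across TKO and 840, 856 and 841 in DKO replicates 1, 2 and 3. The DKO retinae lay within a narrow range above all TKO retinae. Its log2 fold change was -0.65 (standard error 0.172, edgeR adjusted p = 0.0381), a 1.56-fold decrease that was called in 1 of 6 fits with 1 library left out, that without TKO replicate 3. Col4a6 had 114, 183 and 398 normalized counts across TKO and 449, 425 and 394 in DKO replicates 1, 2 and 3, so that TKO replicate 3 overlapped with the DKO retinae (log2 fold change -0.87, standard error 0.371, edgeR adjusted p = 0.141).

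The remaining pair, Col4a4 and Col4a3, lies head to head on chromosome 1 with 71 bp between the starts. This whole stretch, chr1:82586850-82586920, is shown on the minus strand in the direction of Col4a4, and held none of the 3 motifs. The printed bases begin beside the Col4a3 start and end beside the Col4a4 start, and the label names the pair only.
Col4a4 to Col4a3: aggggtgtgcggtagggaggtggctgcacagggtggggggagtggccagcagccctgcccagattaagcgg
Both genes were expressed at a low level. Col4a3 had 56.5 to 113 normalized counts across TKO and 76.2 to 121 in DKO retinae, and Col4a4 had 106.8 to 173 and 67.4 to 131. Their log2 fold changes were -0.05 (edgeR adjusted p = 0.926) and 0.34 (edgeR adjusted p = 0.441). Col18a1, whose C-terminal fragment is endostatin and which anchors the vitreous to the inner limiting membrane, had the highest level of the class, 13.68 ± 8.402 CPM per kilobase of exon in TKO and 22.9 ± 2.52 in DKO retinae (mean ± SD, n = 3 each). Its normalized counts were 448, 1258 and 1939 in TKO and 1774, 2179 and 2143 in DKO replicates 1, 2 and 3. The groups overlapped through TKO replicate 3, and TKO replicate 1 was far below the rest (log2 fold change -0.74, standard error 0.411, edgeR adjusted p = 0.243). Col15a1, its relative in vessel basement membranes, was at -0.44 (edgeR adjusted p = 0.316).

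Among the other collagens, Col23a1, a transmembrane collagen, had the third highest level, 36.2 ± 8.19 CPM per kilobase of exon in TKO and 47.9 ± 2.93 in DKO retinae (mean ± SD, n = 3 each). Its normalized counts of 2307, 2266 and 3316 in TKO lay just below 3719, 3386 and 3324 in DKO replicates 1, 2 and 3, without overlap, and the log2 fold change of -0.40 was not called (standard error 0.149, edgeR adjusted p = 0.0997). The other transmembrane collagens Col13a1 and Col17a1 had log2 fold changes of -0.79 and 0.09. Col7a1, the anchoring fibril collagen, had 857, 481 and 684 normalized counts across TKO and 525, 333 and 462 in DKO retinae. This difference of 0.61 (log2) was called by DESeq2 (adjusted p = 0.0386) and not by edgeR (adjusted p = 0.100). Col20a1, a FACIT collagen, was at 0.50 (edgeR adjusted p = 0.188) and Col14a1 at -0.58 (edgeR adjusted p = 0.496). The short-chain collagens Col8a1 and Col8a2, which form the network of Descemet's membrane and of vessel walls, were at 0.28 and 0.03, and Col8a2 spread from 20.7 to 156 normalized counts within DKO retinae alone. Col26a1 and Col28a1 were at -0.01 and -0.98. Neither was called, and Col28a1 had at most 23.5 normalized counts in any library.

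Genes that make, bind, sense and degrade collagen were then read as 5 lists. Of 32 genes for synthesis and crosslinking, 3 rose and 3 fell by edgeR, near the 7.35% and 9.20% of all genes tested, with a median log2 fold change of -0.21. At an unadjusted p under 0.05 (share of all genes not taken), 3 were higher and 10 lower. DESeq2 called 3 higher and 5 lower, where it called 1479 and 1757 of all 16904 genes. P4ha1, a subunit of prolyl 4-hydroxylase, rose from 760 ± 12.99 to 1049 ± 115 normalized counts (mean ± SD, n = 3 each, log2 fold change 0.47, edgeR adjusted p = 0.0153). Adamts3, a procollagen N-proteinase, and Pcolce2, an enhancer of C-propeptide cleavage, rose by 0.91 and 0.95 on the log2 scale (edgeR adjusted p = 0.0394 and 0.0107). Serpinh1, which encodes the collagen chaperone HSP47, had 252, 410 and 542 normalized counts across TKO and 1088, 746 and 675 in DKO replicates 1, 2 and 3, without overlap. It fell by 1.06 on the log2 scale (edgeR adjusted p = 0.0340). The C-proteinase Bmp1 and the lysyl oxidase homologue Loxl2 fell by 0.67 and 0.41 (edgeR adjusted p = 0.0171 and 0.0259). The genes of this list with the largest mean counts, P4hb and Mia3, were at -0.12 and 0.17 and were not called.

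Basement membrane partners of collagen were lower in 2 of 22 genes, near the 9.20% of all genes tested that were, with a median of -0.41. Nid1, the nidogen that links the type IV network to laminin, had 142, 183 and 169 normalized counts across TKO and 490, 342 and 347 in DKO replicates 1, 2 and 3. Every TKO value was below every DKO value, and the fit gave a log2 fold change of -1.25 (standard error 0.176, edgeR adjusted p = 0.00700). Lamb2, the laminin beta-2 chain of retinal and synaptic basement membranes, fell from 738 ± 112 to 461 ± 101 normalized counts (mean ± SD, n = 3 each, log2 fold change -0.68, edgeR adjusted p = 0.0306). Sparc and Agrn, the most abundant members, were at -0.38 and -0.41 (edgeR adjusted p = 0.0704 and 0.0957). None of the 22 rose by edgeR, by DESeq2 or at an unadjusted p under 0.05. Downward, 10 of the 22 had an unadjusted p under 0.05, a threshold at which the share of all genes was not taken. DESeq2 called 7 lower, where it called 1757 of all 16904 genes lower.

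Of 10 collagen receptors tested, 3 fell, where 9.20% of all genes did. The integrin beta-1 subunit Itgb1 had 1037, 1174 and 1243 normalized counts across TKO and 1750, 1612 and 1481 in DKO replicates 1, 2 and 3, without overlap (log2 fold change -0.49, edgeR adjusted p = 0.0148). Mrc2, the endocytic receptor that takes up collagen fragments, fell by 1.23 (edgeR adjusted p = 0.0193), and Lair1, an inhibitory collagen receptor of leukocytes, by 0.60 on the log2 scale (edgeR adjusted p = 0.0403). Lair1 is a gene of immune cells, and 4 of 7 microglia markers were lower in the same retinae, with a summed level of 114 to 191 CPM in TKO and 206 to 324 in DKO retinae. The part of microglia in this was not tested. Ddr1, a collagen-binding receptor kinase and the most abundant of the list, was at -0.47 (edgeR adjusted p = 0.0976).

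Of 12 genes for collagen degradation tested, 3 fell, against 9.20% of all genes. Mmp14, a membrane-bound metalloproteinase that cleaves fibrillar collagen, had 364, 372 and 535 normalized counts across TKO and 1397, 1176 and 1052 in DKO replicates 1, 2 and 3. The groups were widely separated (log2 fold change -1.51, standard error 0.169, edgeR adjusted p = 0.00480). Mmp16, a related membrane-bound metalloproteinase, was at -0.52 (edgeR adjusted p = 0.0406). Timp1, a metalloproteinase inhibitor that is induced in reactive glia, had 16.1, 8.42 and 33.1 normalized counts across TKO and 113, 49.9 and 715 in DKO retinae. DKO replicate 3 was far above the rest (log2 fold change -3.95, standard error 1.04, edgeR adjusted p = 0.0368). The summed level of the 4 astrocyte markers, carried mostly by Gfap, was also highest in that library, at 956 CPM, with 345 and 475 in the other DKO retinae and 155 to 329 in TKO retinae. Without Gfap the other 3 markers summed to 41.5 to 49.2 CPM in TKO and 33.1 to 42.2 in DKO retinae, and the part of these markers in the Timp1 values was not tested. The inhibitors with the largest counts, Timp2 and Timp3, were at -0.27 and -0.15 and were not called. Of 16 tested genes for proteins that bind collagen fibrils, none was called by edgeR at an adjusted p of at most 0.05, and 6 were lower at an unadjusted p under 0.05 (share of all genes not taken). DESeq2 called 5 of the 16 lower, where it called 1757 of all 16904 genes lower. Their median was -0.64, and Prelp and Fn1, the most abundant, were at -0.73 and -0.60 (edgeR adjusted p = 0.0509 and 0.0947).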

How the data were processed

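RNA-seq counts of 6 P21 retinae, 3 TKO and 3 DKO by their labels, were analysed. The authors deposited raw read counts per gene, by symbol. The paper's methods name STAR and HTSeq on GRCm38, while the submitters' processing notes name TopHat2, featureCounts, mm10 and GRCm38. Multiple alignments were allowed, so near-identical genes are uncertain, and the strand setting is not given in the sources used here. Totals were 10343907 to 14203098 counts per library, and a 0 allows up to 3 counts (counting error only). Pairs of replicates had a chi-square of 8.97 to 26.6 per degree of freedom, above sampling noise.

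After genes summing to fewer than 10 counts had been left out, 16904 were tested with edgeR 4.0.16 (R 4.3.3, TMM, quasi-likelihood F test, Benjamini-Hochberg over all genes, call at an adjusted p of at most 0.05). Standard errors were obtained from the F statistic and the fitted log2 fold change, and levels per kilobase use the exon union of GENCODE M21 (GRCm38). Promoters are from RefSeq on GRCm38.p6, printed without annotated exon. The test was run on counts simulated with a common dispersion for all genes and no outlying library. That run does not check the test on spreads like those of these replicates. DESeq2 1.42.0, other scalings and filters, a robust fit, a block on the replicate number and each library left out were alternatives. Leaving out TKO and DKO replicate 1 together and the bone list were added after seeing the data. Samples with the same number did not deviate together (correlations 0.05, -0.05 and -0.16), so they were not paired. The members and the class, related and marker lists were chosen with earlier results of these data known. Named in full were genes called, the 3 highest by level in each class, and of each list the called (up to 3 each way) and 2 largest genes. Others are named where a value of a library or an alternative turned on them. All collagen genes may be named.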

Additional observations from a re-analysis of the deposited data

How the results depend on the processing

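The counts of called collagen genes (7 lower and 1 higher in TKO retinae) were unchanged under RLE and upper-quartile scaling and filterByExpr. All lists were read under DESeq2 (adjusted p of at most 0.05), other scalings, other filters, a robust fit, a block on the replicate number, a threshold of 0.01 and with libraries left out. DESeq2 called 2 collagen genes higher, and called 7 basement membrane partners, 5 fibril partners, 5 receptors and 5 synthesis genes lower, where edgeR called 2, 0, 3 and 3. Of all 16904 genes, DESeq2 called 1479 higher and 1757 lower. It gave no adjusted p for Col1a1 and Col1a2. Scaling by total counts, under which the median over all genes was -0.17, gave 10 differentially expressed collagen genes in place of 5, and 7 basement membrane partners, 4 fibril partners, 5 receptors and 8 synthesis genes lower. With no filter on low counts 4 basement membrane partners and 2 fibril partners were lower, with filterByExpr 2 fibril partners and with upper-quartile scaling 1. A robust fit left 3 differentially expressed collagen genes.

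At an adjusted p of at most 0.01, 2 collagen genes were lower, 0 higher and 1 differentially expressed, with 1 basement membrane partner and 1 degradation gene lower and 0 receptors or synthesis genes in the directions called. With the replicate number as a block, 0 collagen genes were called in either direction or by the study's criteria, 0 basement membrane partners, receptors or synthesis genes, and 1 degradation gene, where 24 genes rose and 82 fell among all genes tested. The numbers do not pair the retinae. Leaving out TKO and DKO replicate 1 together, which was chosen after seeing the data and leaves 2 against 2 retinae, gave 0 calls of any kind for the collagen genes and 0 for these lists, and 0 higher and 3 lower among all genes. The fibrillar median was then -0.24 and the log2 fold change of Hells -2.60, no longer called (edgeR adjusted p = 0.0625).

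With 1 library left out, collagen genes called lower ranged from 2 to 14 (highest without TKO replicate 3), those called higher from 0 to 1 and the differentially expressed from 1 to 13. Over all genes tested in these fits, those called lower ranged from 404 to 1973 and those called higher from 214 to 1617, both also highest without TKO replicate 3. Lower genes ranged from 1 to 10 for basement membrane partners, 1 to 4 for degradation, 0 to 4 for fibril partners, 0 to 4 for receptors and 0 to 7 for synthesis, with each highest count without TKO replicate 3, and higher synthesis genes from 0 to 4. The fibrillar median ranged from -1.25 to -0.42, lowest in size without DKO replicate 1, and kept its sign, as did the basement membrane (-0.45 to -0.18) and other medians (-0.70 to -0.30).

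None of the 8 called collagen genes changed sign under any of these settings. Of those not called, the log2 fold change ranged across 0 with 1 library left out for Col3a1 (-1.60 to 0.57), Col4a1 (-0.38 to 0.040), Col4a2 (-0.21 to 0.069), Col4a3 (-0.26 to 0.20), Col5a1 (-0.21 to 0.22), Col5a3 (-0.15 to 0.29), Col6a6 (-0.24 to 0.46), Col8a2 (-0.40 to 1.25), Col17a1 (-0.0054 to 0.27) and Col26a1 (-0.14 to 0.19). Without both replicate 1 libraries it turned for Col1a2 (0.028), Col3a1 (0.83), Col4a2 (0.036), Col5a1 (0.22), Col5a3 (-0.036), Col8a2 (-0.42), Col14a1 (0.072) and Col17a1 (-0.056). Total-count scaling turned Col5a3 (-0.14), Col6a6 (-0.10), Col8a2 (-0.12) and Col17a1 (-0.067), upper-quartile scaling Col5a3 (-0.015) and the block on the replicate number Col26a1 (0.011). The cause was not tested. With 3 retinae a group, members with few counts, such as Col10a1 and Col28a1, have wide standard errors, and a missing call does not show that they did not differ.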
